A study of Triticum aestivum and Zea mays with 29 samples.

Results

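Zm-TS9 and Zm-TS10 are 2 maize crRNA targets of an LbCas12a cytosine base editor (CBE), taken as every row of these 2 targets in the deposited table of maize C-to-T editing. That table covers 4 targets and 26 cytosines, and these 2 account for 14 of the cytosines, 5 in Zm-TS9 and 9 in Zm-TS10. Leaf protoplasts of the maize inbred line B104, which are cells without walls, were transfected with CBE6, CBE5 or no base editor, with 3 replicates of each, and sorted on GFP fluorescence before the targets were amplified and sequenced. CBE6 and CBE5 share the deaminase A3A, LbCas12a(D156R-D832A) and UGI, an inhibitor of uracil repair. They differ in the linker between deaminase and LbCas12a, which is 6xGGGGS in CBE6 and XTEN in CBE5. The crRNAs for Zm-TS9, Zm-TS10, Zm-TS3 and Zm-TS4 were delivered together, each from a wheat U3 promoter within a tRNA and direct repeat array. The table has a key for both editors and none for the remaining arm, which was taken as the control without editor.

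In a cytosine base editor a catalytically inactive Cas protein opens the DNA at the site that its crRNA matches, and the tethered deaminase turns cytosines of the exposed strand into uracil, which is copied as T. LbCas12a reads a T-rich motif, the PAM, on the 5′ side of the target, so positions are counted from 1 at the base next to the PAM. The deaminase is APOBEC3A, a human enzyme that is known to prefer a cytosine that follows a T. One spacer usually holds several cytosines, and those edited beside an intended base are called bystanders. Zm-TS9 lies in empty pericarp 16 (Zm00001d011559), which encodes a mitochondrial pentatricopeptide repeat protein needed for kernel development. Zm-TS10 lies in compact plant 2 (Zm00001d027886), which encodes the alpha subunit of the heterotrimeric G protein and acts in meristem size control.

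The spacers are printed 5′ to 3′ because every value below belongs to a single base of them. Capitals mark the cytosines that the table lists.
Zm-TS9: ccaacCatCtCagagaaCatgtC
Zm-TS10: tCtggCCtCCtaCatCgtaCagC
Both spacers have 23 bases and follow a PAM that reads TTTC in the amplicon. The Zm-TS9 spacer lies at bases 130 to 152 of an amplicon of 235 bases, and the Zm-TS10 spacer at bases 90 to 112 of an amplicon of 235 bases. G and C make up 47.8% of the Zm-TS9 spacer and 56.5% of the Zm-TS10 spacer. Zm-TS9 has 8 cytosines, of which the table lists C6, C9, C11, C18 and C23, and C1, C2 and C5 carry no value. All 9 cytosines of Zm-TS10 are listed: C2, C6, C7, C9, C10, C13, C16, C20 and C23. Both targets hold 3 listed cytosines directly after a T, and capitals mark these with their T in a second copy of the spacers, for the comparison by sequence context further on.
Zm-TS9: ccaaccaTCTCagagaacatgTC
Zm-TS10: TCtggccTCctacaTCgtacagc
In Zm-TS9 these are C9, C11 and C23, and in Zm-TS10 they are C2, C9 and C16. The targets share the listed positions C6, C9 and C23.

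Each value is the percent of aligned reads of a replicate with T at that cytosine. The table gives no read counts, so the depth behind a value is unknown and no counting interval can be given. The smallest value above 0 in the table was 0.20%, and a cytosine listed at 0 is reported as such, not as unedited. Of the 84 editor values at the 2 targets 20 were listed at 0, and of the 42 control values 5 were above 0, the highest being 0.23%. In CBE5 replicate 1 all 9 cytosines of Zm-TS10 were listed at 0. The same replicate had the highest Zm-TS9 level of all (2.93%), and its levels at Zm-TS3 and Zm-TS4 were 9.27% and 11.1%. Whether this replicate had reads of the Zm-TS10 amplicon cannot be told from the table, and results on Zm-TS10 are therefore given with and without it, a choice made after the values were seen.

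Zm-TS9 was edited mainly at C9 and C11, with a smaller share of reads edited at C6 and very few at C18. C9 had 4.55, 4.18 and 5.16% in the CBE6 replicates, 6.39, 6.30 and 6.13% in the CBE5 replicates, and was listed at 0 in the 3 controls. C11 had exactly the same percent as C9 in each of the 6 editor replicates and was also at 0 in the controls. All 6 editor replicates therefore lay above all controls at both cytosines, with a mean of 5.45 ± 0.957% (SD, n = 6).

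C6 of Zm-TS9 had 1.95, 0.58 and 1.93% with CBE6 and 0.97, 1.69 and 1.89% with CBE5, against 0 in every control. Its mean of 1.50 ± 0.584% (SD, n = 6) was 27.5% of that at C9, and C6 lies 3 bases nearer to the PAM. C18 had 0.25, 0.23 and 0.26% with CBE6 and 0.46, 0.24 and 0.29% with CBE5, and was at 0 in the controls. Its mean of 0.288 ± 0.0866% (SD, n = 6) lay close to the smallest value that the table lists, at 5.29% of the mean at C9. C23, the base farthest from the PAM, had a value above 0 in 2 of 6 editor replicates, 0.23% in CBE6 replicate 2 and 0.46% in CBE5 replicate 1, and overlapped with the controls.

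Zm-TS10 was edited at a low and nearly constant level over C7 to C16, with C6 also carrying T in the controls, and the means of C2, C20 and C23 were lower. C9 had 1.42, 1.38 and 1.22% in the CBE6 replicates, 0, 1.50 and 1.40% in the CBE5 replicates, and was at 0 in the controls. C10 carried exactly these percents too. C7 and C16 had 1.42, 1.38 and 1.22% with CBE6 and 0, 1.17 and 1.40% with CBE5, and were at 0 in the controls. C13 had 1.42, 1.64 and 1.22% with CBE6 and 0, 1.17 and 1.40% with CBE5, again with controls at 0. Apart from CBE5 replicate 1, every editor replicate exceeded every control at these 5 cytosines.

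C6 of Zm-TS10 was the only cytosine of the 2 targets with a value above 0 in every control. It had 1.42, 1.63 and 1.43% with CBE6 and 0, 1.17 and 0.93% with CBE5, against 0.22, 0.21 and 0.23% in the controls. CBE5 replicate 1 thus lay below the controls at C6. Means over the editor replicates ran from 1.10 to 1.15% across the 6 cytosines from C6 to C16, that is from 95.1 to 100% of the most edited one. With the mean of the controls subtracted, C6 stood at 76.0% of C9 and the other 5 cytosines, whose controls were at 0, kept their values.

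Toward the ends of the Zm-TS10 spacer values were scattered. C20 had 0.33, 1.38 and 0.64% with CBE6, was listed at 0 in all 3 CBE5 replicates, and had 0, 0.21 and 0% in the controls. C23 had 0.20, 0.40 and 0% with CBE6 and 0, 0.34 and 0.48% with CBE5, against 0, 0.21 and 0% in the controls, so that the groups overlapped. C2, next to the PAM-proximal end, had 0.44% in CBE6 replicate 1 and was at 0 in the other 8 replicates, controls included.

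Counted by cytosine, every CBE6 replicate exceeded every control at 4 of 5 cytosines of Zm-TS9 and at 7 of 9 of Zm-TS10 (C6 to C20), where the share over all 26 cytosines of the table was 84.6%. For CBE5 the counts were 4 of 5 in Zm-TS9 and 0 of 9 in Zm-TS10, against 57.7% over the table. Without CBE5 replicate 1 the CBE5 count in Zm-TS10 was 7 of 9, namely C6 to C16 and C23. The 57.7% includes this replicate, so it is no background for that count. With this replicate included, the CBE5 counts were 6 of 6 in Zm-TS3 and 5 of 6 in Zm-TS4, and leaving it out cannot lower them. In an exact permutation test per cytosine of the 6 editor against the 3 control replicates, two-sided and adjusted by Benjamini-Hochberg over the 26 cytosines, C6, C9, C11 and C18 of Zm-TS9 had an adjusted p of 0.0221. C23 of Zm-TS9 did not pass (adjusted p = 0.78, exact test). In Zm-TS10 no cytosine passed, while 5 (C7, C9, C10, C13 and C16) had an unadjusted exact p of 0.0476 and an adjusted p of 0.0619. Of all 26 cytosines, 57.7% passed this test. Without CBE5 replicate 1 the 6 cytosines from C6 to C16 of Zm-TS10 passed, each with an adjusted p of 0.0232 in the exact test, and C2, C20 and C23 did not. C6, C9, C11 and C18 of Zm-TS9 passed there as well, and the 57.7% refers to all 6 editor replicates.

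The editing level of a target was taken as the mean over its listed cytosines in each replicate. Zm-TS9 reached 2.26, 1.88 and 2.50% with CBE6 and 2.93, 2.91 and 2.89% with CBE5, and was at 0 in the controls. The 6 editor replicates were higher than the 3 controls by 2.56 percentage points (exact permutation test, p = 0.0119, the smallest that 6 against 3 replicates can give). Zm-TS10 reached 1.05, 1.17 and 0.908% with CBE6 and 0, 0.891 and 0.934% with CBE5, against 0.0244, 0.07 and 0.0256% in the controls. Here 5 of 6 editor replicates lay above all controls, and the difference was 0.787 points (exact permutation test, p = 0.0476). It was 0.952 points without CBE5 replicate 1 (exact p = 0.0179). For either editor alone 3 replicates against 3 cannot give a p below 0.10, which is the value found for CBE6 at both targets and for CBE5 at Zm-TS9, and for CBE5 at Zm-TS10 the exact p was 0.4.

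Zm-TS9 was edited more than Zm-TS10 in every editor replicate. Averaged over both editors, the level was 2.56 ± 0.430% at Zm-TS9 and 0.827 ± 0.419% at Zm-TS10 (SD, n = 6 each), a ratio of 3.10. The difference within a replicate ran from 0.706 to 2.93 points with a mean of 1.73 points (exact sign-flip test over 6 pairs, p = 0.0312, the smallest that 6 pairs can give). Without CBE5 replicate 1 the levels were 2.49 ± 0.435% at Zm-TS9 and 0.992 ± 0.120% at Zm-TS10 (SD, n = 5 each), with a ratio of 2.51 and a difference of 1.49 points (exact p = 0.0625, the smallest that 5 pairs can give). With CBE6 alone the ratio was 2.12.

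The positions that both targets share were also compared one by one, a comparison added after the values were seen. At C9 the mean was 5.45% in Zm-TS9 and 1.15% in Zm-TS10, a difference of 4.30 points with a range of 2.80 to 6.39 points, and Zm-TS9 was higher in 6 of 6 replicates. Without CBE5 replicate 1, which gives the top of this range, the difference at C9 was 3.88 points with a range of 2.80 to 4.80 points (adjusted exact p = 0.188). There 5 pairs cannot give an unadjusted p below 0.0625. At C6 the means were 1.50% in Zm-TS9 and 1.10% in Zm-TS10, and the difference ran from -1.05 to 0.97 points. At C23 they were 0.115% in Zm-TS9 and 0.237% in Zm-TS10. None of the 3 differences passed after adjustment over the 3 positions (exact sign-flip tests, adjusted p = 0.0938 at C9 and 0.375 at C6 and C23). The unadjusted p at C9 was 0.0312, the smallest that 6 pairs can give. C9 exceeded C6 by 3.95 points in Zm-TS9 and by 0.0567 points in Zm-TS10, and by 3.66 points in Zm-TS9 and 0.068 points in Zm-TS10 without CBE5 replicate 1. These steps are given as a description, since this pair of positions was picked for its values.

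Relative to the level of the target, percents varied more among the cytosines of Zm-TS9 than among those of Zm-TS10. Over the listed cytosines from position 6 to 16, the coefficient of variation within a replicate was 0.554 ± 0.118 in Zm-TS9 (SD, n = 6), with a range of 0.408 to 0.697. In Zm-TS10 it was 0.0873 ± 0.0580 (SD, n = 5), with a range of 0 to 0.145, and it is undefined in CBE5 replicate 1. The ranges did not overlap, and the 5 replicates with both values gave an exact sign-flip p of 0.0625, which is the smallest possible and does not pass. The stretch holds 3 listed cytosines in Zm-TS9 and 6 in Zm-TS10. Percents were used as deposited, so C6 of Zm-TS10 kept the 0.21 to 0.23% seen in its controls. The coefficient of variation was not computed with the controls subtracted, so how far this background shapes the Zm-TS10 values was not tested.

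Neighbouring cytosines often carried identical percents to the last digit given. In Zm-TS9 C9 and C11, which are 2 bases apart, were equal in 6 of 6 editor replicates, while C6 and C9 were equal in 0 of 6 and C11 and C18 in 0 of 6. C18 and C23 were equal above 0 in 2 of 6, at 0.23% in CBE6 replicate 2 and at 0.46% in CBE5 replicate 1. In Zm-TS10 the adjacent C9 and C10 were equal in 5 of 6 replicates, which are all replicates with values above 0. C7 and C9 were equal in 4, C13 and C16 in 4, C10 and C13 in 3, C6 and C7 in 2 and C16 and C20 in 1 of the 6 replicates. C2 and C6 as well as C20 and C23 were equal in 0 of 6.

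Within single replicates these equal percents extended over much of the Zm-TS10 spacer. CBE6 replicate 1 had 1.42% at 6 cytosines, from C6 to C16. CBE6 replicate 2 had 1.38% at 5 cytosines (C7, C9, C10, C16 and C20), and CBE6 replicate 3 had 1.22% at 5 cytosines, from C7 to C16. CBE5 replicate 2 had 1.17% at 4 cytosines (C6, C7, C13 and C16) and 1.50% at C9 and C10. CBE5 replicate 3 had 1.40% at 5 cytosines, from C7 to C16. C6 had 0.22, 0.21 and 0.23% in the controls and C20 had 0.21% in control replicate 2, while C7 to C16 were at 0 there. Subtracting the mean of the controls takes C6 out of the runs of CBE6 replicate 1 and CBE5 replicate 2, and C20 out of that of CBE6 replicate 2. Reads edited at all bases of such a run would give equal percents. So could percents that rest on few reads or leave out rare reads, which was not tested. Counting percents within 0.05 points as equal added no case in either target, and the smallest value above 0 was 0.20%. The table holds 1 percent per base and no combination of bases within reads, so joint editing was not measured.

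Over all adjacent pairs and editor replicates, 8 of 24 comparisons were equal above 0 in Zm-TS9 (33.3%) and 19 of 48 in Zm-TS10 (39.6%), beside 11 of 30 in Zm-TS3, 5 of 30 in Zm-TS4 and 43 of 132 in the whole table (32.6%). No difference between neighbours in the 2 targets passed after adjustment over the 22 adjacent pairs of the table (exact sign-flip tests). The lowest adjusted p was 0.0859, for the step of 3.95 points between C9 and C6 and that of 5.16 points between C11 and C18 in Zm-TS9. Both steps had the same sign in 6 of 6 replicates. Their unadjusted p was 0.0312 each, the smallest that 6 pairs can give, so over 22 adjusted pairs no single step could pass by itself.

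The percents of Zm-TS9 set a limit on how far editing at C6 and C9 can have occurred in the same reads. Where fewer reads carry T at C6 than at C9, the excess at C9 must come from reads without T at C6. If each percent counts all reads with T at its base, at least 57.1 to 86.1% of the reads edited at C9 lacked T at C6. The mean of this bound was 72.2 ± 11.7% (SD, n = 6). C6 stood at 13.9 to 42.9% of C9 in Zm-TS9, against 66.4 to 118% in the 5 replicates of Zm-TS10 with values above 0. With the mean of the controls subtracted, which changes only C6 of Zm-TS10, the range in Zm-TS10 was 50.7 to 102%.

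The base before the cytosine was compared between positions 6 and 16. In Zm-TS9 the cytosines after T, C9 and C11, exceeded the other listed cytosine of this stretch, C6, by 3.95 points, with a range of 2.60 to 5.42 points (exact sign-flip test, p = 0.0312; adjusted p = 0.0938 over the 3 targets with both kinds). With a single cytosine of the other kind, which follows a C, the base before and the position cannot be told apart in Zm-TS9. In Zm-TS10 the cytosines after T, C9 and C16, differed from C6, C7, C10 and C13 by 0.00333 points on average, with a range of -0.128 to 0.118 points (exact p = 1). The percents were not corrected for the controls, which had 0.21 to 0.23% at C6 and 0 at the other 5 cytosines. Subtracting them would raise the difference in Zm-TS10, and this was not computed. C9 follows T and C10 follows C, and they carried the same percent in all 5 replicates with values above 0. In Zm-TS3 the difference was -0.025 points, and Zm-TS4 has no listed cytosine after T in this stretch.

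The linker variants were compared with 3 replicates each, where an exact test cannot give a p below 0.10. At Zm-TS9 the level was 2.21 ± 0.314% with CBE6 and 2.91 ± 0.0232% with CBE5 (SD, n = 3 each), and all CBE6 replicates lay below all CBE5 replicates. The difference of -0.695 points, with pairs of replicates from -1.05 to -0.386 points, had an exact permutation p of 0.10. It lay mostly at C9 and C11, where CBE6 averaged 4.63 ± 0.495% and CBE5 6.27 ± 0.132% (SD, n = 3 each), a ratio of 0.738. C6 averaged 1.49 ± 0.785% with CBE6 and 1.52 ± 0.484% with CBE5 (SD, n = 3 each).

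At Zm-TS10 the level was 1.05 ± 0.134% with CBE6 (SD, n = 3), against 0.891 and 0.934% in the CBE5 replicates with values above 0 and 0 in CBE5 replicate 1. The difference over all replicates was 0.437 points, with pairs of replicates from -0.0267 to 1.17 points (exact permutation p = 0.2), and 0.133 points without CBE5 replicate 1 (exact p = 0.3). CBE6 minus CBE5 was lower at Zm-TS9 than at Zm-TS10, with a difference of -1.13 points between the targets (exact permutation of the editor labels, p = 0.10, the smallest possible) and of -0.816 points without CBE5 replicate 1 (exact p = 0.2). At Zm-TS3 and Zm-TS4 CBE6 minus CBE5 was -0.330 and -0.857 points, and the editors overlapped at both.

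Zm-TS9 and Zm-TS10 were the least edited of the 4 targets, in all 6 editor replicates. Beside their means of 2.56% and 0.827%, Zm-TS3 in small kernel 1 had 7.35 ± 1.57% and Zm-TS4 in liguleless2 had 10.2 ± 1.37% (SD, n = 6 each), which is 2.87 and 3.97 times the level of Zm-TS9 and 8.89 and 12.3 times that of Zm-TS10. Zm-TS9 differed from Zm-TS3 by -4.79 points and from Zm-TS4 by -7.62 points. Zm-TS10 differed from Zm-TS3 by -6.53 points and from Zm-TS4 by -9.35 points. All 4 differences had the same sign in 6 of 6 replicates (exact sign-flip tests, adjusted p = 0.0312 each over the 6 pairs of targets). Without CBE5 replicate 1 Zm-TS10 differed from Zm-TS3 by -5.98 points and from Zm-TS4 by -9.00 points, with ratios of 7.02 and 10.1, and neither passed (adjusted exact p = 0.0625 each, the smallest that 5 pairs can give). At their most edited cytosines the means were 5.45% in Zm-TS9 and 1.15% in Zm-TS10, beside 9.82% in Zm-TS3 and 15.7% in Zm-TS4. The targets are single sequences in single genes, so their order describes these 4 crRNAs in these transfections.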

How the data were processed

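The members were fixed by target name, and the comparisons and alternatives were chosen with earlier results of these data known. The authors demultiplexed paired-end amplicon reads with Je-demultiplex and computed C-to-T conversion with CRISPResso2, and deposited it as percent of aligned reads per cytosine and replicate, with no read counts beside it. Amplicons came from sorted cells by PCR without molecular identifiers. The methods of the study call the replicates independent biological replicates. Editor names were assigned through the linker in the table's key. Spacer and amplicon sequences were read from the study's list of target sequences. No gene coordinates were used.

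Levels, differences and counts were computed from the percents as deposited, with no filter. All tests were two-sided exact permutations of replicates, or sign-flips of differences within a replicate where 2 bases or targets of the same replicate were compared, and Benjamini-Hochberg adjustment was used as stated. A threshold of 0.05 was applied. The tests were checked on simulated replicates. Every listed cytosine of the 2 targets was to be named, and of Zm-TS3 and Zm-TS4 only levels and counts. Alternatives were the most edited cytosine, control subtraction, log2 of percent plus 0.1, positions 6 to 16, shared positions, a replicate block, no pairs, pooled points with 100000 permutations, a tolerance of 0.05 points and leaving out replicates. Deposited counts of reads per amplicon, made by the authors with CRISPResso2 for 4 maize libraries whose arm the labels do not give, served only for values outside the comparisons, with Wilson 95% intervals that cover counting error alone. Python 3.11.15, NumPy 2.4.6 and SciPy 1.17.1 were used.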

Additional observations from a re-analysis of the deposited data

Results flagged for a closer look

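The amplicons of both targets were also read in 4 maize libraries that the labels assign to no arm, so these values enter no comparison. They are listed because they lie above the limit that a count of 0 allows, a limit that PCR and sequencing errors can also exceed at this depth. Editing is therefore not shown by them. Shares were taken over unmodified plus modified reads, since the total given for reads was smaller than that for aligned reads. At Zm-TS9 the share of reads with any modification was 6.03% (Wilson 95% interval 5.98 to 6.08) in library 1, 6.07% (6.02 to 6.12) in library 2, 5.39% (5.33 to 5.44) in library 3 and 5.89% (5.84 to 5.94) in library 4, from 718669 to 945022 reads. At Zm-TS10 it was 5.50% (5.45 to 5.55) in library 1, 5.04% (4.99 to 5.09) in library 2, 4.95% (4.89 to 5.01) in library 3 and 4.82% (4.77 to 4.87) in library 4, from 557405 to 797061 reads. Nearly all were substitutions of any kind, since reads with a deletion made up 0.0325 to 0.0917% at Zm-TS9 and 0.00365 to 0.00933% at Zm-TS10. These tables do not say which base changed, and no library without editor is known among them, so the level of sequencing and PCR errors in them was not measured.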

How the results depend on the processing

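Effects are differences in percentage points unless stated. Leaving out a replicate number leaves too few replicates for any comparison of levels, or the test of any cytosine, to pass the threshold. Only the values are informative there. Over these settings and the one without CBE5 replicate 1 alone, editing above control ranged from 2.50 to 2.65 at Zm-TS9 and from 0.699 to 0.952 at Zm-TS10, Zm-TS9 minus Zm-TS10 from 1.49 to 1.92, Zm-TS9 minus Zm-TS3 from -5.49 to -4.35, Zm-TS9 minus Zm-TS4 from -8.23 to -7.00, Zm-TS10 minus Zm-TS3 from -7.20 to -5.98 and Zm-TS10 minus Zm-TS4 from -10.2 to -8.72. The count of cytosines that passed the adjusted test ranged from 0 to 4 in Zm-TS9 and from 0 to 6 in Zm-TS10, with 6 only where CBE5 replicate 1 alone was left out. The count of Zm-TS10 cytosines with all CBE5 replicates above all controls ranged from 0 to 7, with 7 where CBE5 replicate 1 was left out, and was 7 where the CBE5 mean had to exceed the highest control. Zm-TS9 minus Zm-TS10 was 1.17 with CBE6 alone and 2.30 with CBE5 alone (exact p = 0.25 each, the smallest that 3 pairs can give), 0.405 at C6, 4.30 at C9 and -0.122 at C23, and kept its direction and side of the threshold on the log2 scale, at positions 6 to 16, over shared positions, with controls subtracted, and without pairs (exact p = 0.00216). With all percents as points, CBE6 minus CBE5 at Zm-TS10 (0.437) had a permutation p of 0.00659, which was 0.3 once CBE5 replicate 1 was left out. This setting counts the cytosines of 1 replicate as independent, so its p does not measure the spread between replicates. Over replicates the exact permutation p was 0.2. Without each replicate number in turn CBE6 minus CBE5 at Zm-TS10 ranged from 0.128 to 0.669. For cytosines after T, taking all listed cytosines gave 2.78 at Zm-TS9 (adjusted exact p = 0.0469) and -0.0781 at Zm-TS10, and leaving out replicates gave -0.0113 to 0.0163 at Zm-TS10.

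Whether replicate numbers pair the samples could not be told from the values. Deviations of same-numbered CBE6 and CBE5 replicates over the 26 cytosines correlated at -0.763, 0.864 and 0.427. Those of differently numbered replicates correlated at -0.810 to 0.507. With the replicate block, CBE6 minus CBE5 was -0.695 at Zm-TS9 (exact p = 0.25) and 0.437 at Zm-TS10 (exact p = 0.5). As 3 pairs cannot give a p below 0.25, and 3 replicates against 3 none below 0.10, neither fit could pass the threshold. Of 140 values under alternatives, 100 kept their direction and side of the threshold or stayed within 1.5 times the count, many of them in comparisons too small to pass it. Another 28 no longer passed, 2 newly passed, 3 changed direction and 7 were counts that moved further. The unknown depth limits the reading of every value near 0.20%.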
